A study of Mus musculus with 4 samples.

Results

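The regions described here are CTCF binding regions that were called with a broad signal in control cardiac myocytes and not called at all in cardiac myocytes of CTCF knockout hearts. They were chosen by 2 measured values, the width of the control region (at least 250 bp and under 500 bp, chromosomes 1 to 19) and the absence of any overlap, by 1 bp or more, with a region of the knockout list. The rule found 933 regions among 7383 control regions of that width, 19701 control regions on these chromosomes and 20043 control regions in all. The remaining 6450 regions of the same width overlapped a knockout region and served as the comparison; they are called kept, and the 933 are called absent. An absent region is one without a call in the knockout list, which does not mean that it had no signal there. Absent regions were 12.6% of the wide control regions (Wilson 95% interval 11.9 to 13.4), beside 30.9% of all control regions on chromosomes 1 to 19. Since width and overlap made the rule, nothing is read from these percentages.

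Sequencing of DNA pulled down with a CTCF antibody (ChIP-seq) was done in left ventricular myocytes of C57BL/6 mice, labelled as isolated cardiac myocytes, with 1 library of control genotype and 1 library of the genotype CTCF_knockout, each from a pool of 3 hearts. The labels give no age or sex, and do not say how or in which cells CTCF was removed. With 1 library a genotype, the genotypes cannot be compared by a test, and every interval here covers counting error only. The knockout list still held 16128 regions, 15814 of them on chromosomes 1 to 19, so the library is named by its label throughout. The input libraries were not analysed here, and the files used hold no expression values against which to check the labelled cell type.

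CTCF is a zinc-finger protein that reads a long, GC-rich DNA motif with a conserved core. Together with the ring-shaped cohesin complex it marks the bases of chromatin loops and the borders between domains, and it also binds near many gene promoters. ChIP-seq reports DNA bound by the protein directly as well as DNA held near it through other proteins.

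Sequence could be read for those wide regions whose summit, the base of highest signal, lay in a listed promoter window. These windows, from RefSeq (build GRCm38.p6, which has the coordinates of mm10), span 250 bases before to 50 after a transcription start. Of the wide regions, 68 absent and 441 kept ones had a summit in such a window on the chromosomes the table holds. The upstream bases of the window that the control region itself covered are printed for 8 of them, 5′ to 3′ on the gene's strand. Capitals mark matches, on either strand, to the CTCF core searched here, CCNNNAGNNGGC. The first set holds the 3 absent regions of highest control fold enrichment whose stretch had no match. They lay at Cav1, which encodes the membrane coat protein caveolin, and at Epdr1 and Ylpm1. The Epdr1 summit lay 17 bp past the start, outside the printed bases.

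Cav1 (chr6:17307413-17307639, strand +): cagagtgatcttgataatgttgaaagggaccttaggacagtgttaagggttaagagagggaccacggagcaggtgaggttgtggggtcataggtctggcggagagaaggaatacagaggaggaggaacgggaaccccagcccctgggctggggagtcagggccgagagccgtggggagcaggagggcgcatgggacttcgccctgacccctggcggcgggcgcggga
Epdr1 (chr13:19619831-19619981, strand -): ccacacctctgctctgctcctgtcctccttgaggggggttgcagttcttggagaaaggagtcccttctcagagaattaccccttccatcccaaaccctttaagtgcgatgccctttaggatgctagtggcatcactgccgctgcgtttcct
Ylpm1 (chr12:84996103-84996320, strand +): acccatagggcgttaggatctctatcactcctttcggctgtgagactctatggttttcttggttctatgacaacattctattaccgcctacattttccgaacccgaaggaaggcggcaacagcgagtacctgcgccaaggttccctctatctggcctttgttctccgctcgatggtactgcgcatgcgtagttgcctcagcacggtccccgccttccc

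The second set holds the 3 strongest absent regions with a match, at the predicted gene Gm9936, at Meltf, which encodes the iron-binding protein melanotransferrin, and at Rnf141, a RING finger protein gene. The Rnf141 summit lay 4 bp past the start, outside the printed bases.

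Gm9936 (chr5:114859428-114859631, strand -): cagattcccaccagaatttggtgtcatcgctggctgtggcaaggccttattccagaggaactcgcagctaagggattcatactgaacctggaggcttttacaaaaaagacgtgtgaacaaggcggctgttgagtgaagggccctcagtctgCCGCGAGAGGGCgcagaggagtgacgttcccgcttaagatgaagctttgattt
Meltf (chr16:31878560-31878809, strand +): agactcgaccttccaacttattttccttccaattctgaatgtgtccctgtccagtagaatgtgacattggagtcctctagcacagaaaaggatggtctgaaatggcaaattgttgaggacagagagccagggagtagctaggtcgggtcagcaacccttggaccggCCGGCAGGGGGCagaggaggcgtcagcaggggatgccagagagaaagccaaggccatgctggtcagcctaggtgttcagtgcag
Rnf141 (chr7:110844382-110844495, strand -): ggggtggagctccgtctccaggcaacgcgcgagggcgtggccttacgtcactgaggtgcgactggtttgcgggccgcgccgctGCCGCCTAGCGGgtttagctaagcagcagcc

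For comparison, the 2 strongest kept regions with a match are shown, at Nsfl1c, a cofactor gene of the p97 ATPase, and at Adprhl2, an ADP-ribose hydrolase gene.

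Nsfl1c (chr2:151494022-151494181, strand +): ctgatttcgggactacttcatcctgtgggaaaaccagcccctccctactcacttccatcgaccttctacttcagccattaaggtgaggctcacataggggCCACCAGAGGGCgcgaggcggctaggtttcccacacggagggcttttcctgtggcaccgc
Adprhl2 (chr4:126321704-126321953, strand -): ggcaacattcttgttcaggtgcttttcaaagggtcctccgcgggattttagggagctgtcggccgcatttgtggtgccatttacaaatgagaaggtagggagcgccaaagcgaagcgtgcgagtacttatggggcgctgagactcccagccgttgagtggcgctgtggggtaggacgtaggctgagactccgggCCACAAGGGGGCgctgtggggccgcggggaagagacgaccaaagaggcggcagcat

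The 6 absent regions shown were far weaker in the control than the 2 kept ones, which were the strongest kept ones with a match. The Cav1 region had a control fold enrichment, the ChIP signal over the local background as given by the authors' peak caller, of 10.97 and the Epdr1 region 10.5. The regions at Ylpm1, Gm9936, Meltf and Rnf141 had 9.92, 9.25, 8.97 and 8.63. The kept regions had 40.8 at Nsfl1c and 36.8 at Adprhl2. Over all 441 kept regions with a summit in a window the median was 11.2 (quartiles 8.83 and 14.5). Over the 68 absent ones it was 6.35. The gaps from the 6 absent regions to the nearest knockout region ran from 27.7 kb at Rnf141 to 95.9 kb at Ylpm1.

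Promoter windows under absent regions held the CTCF core less often than those under kept regions of the same width. It was found in 13 of 68 absent windows (19.1%, 11.5 to 30.01) and in 208 of 441 kept windows (47.2%, 42.6 to 51.8), a difference of -28.0 percentage points (Newcombe 95% interval -37.0 to -16.2). Among all 31396 promoter windows on these chromosomes 8.73% held it. With the kept windows weighted to the control fold enrichment of the absent ones, in 5 bins, the kept share was 41.4% and the difference -22.3 points (-35.4 to -9.25). The absent windows thus held the core less often than kept windows of like fold enrichment. Of the window, the control region itself covered a median of 197 bases when absent and 253 when kept. The search ended 50 bases after the start, so region bases beyond it were not read. Whether either bears on the difference was not tested. The number of reads at the summit was not matched for these windows. Over all wide regions, weighted to the same fold enrichment in 10 bins, 54.3% of kept regions had at least 15 reads, against 32.6% of absent ones. The lower bound of the absent share was above the share of all windows, which were not matched for base composition. A core centred within 50 bp of the summit was present in 10 of 68 absent and 175 of 441 kept windows (14.7% and 39.7%). In the longer form CCNNNAGGNGGC, of which every match is also a match to the first, the shares were 10.3% and 32.4%, against 3.48% of all windows.

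Base composition differed less between the windows. The median GC content was 61.7% in absent and 61.3% in kept windows, and 53.0% over all windows. The median ratio of observed to expected CpG was 0.807 in absent, 0.758 in kept and 0.389 in all windows. Promoters under both kinds of region were thus GC-rich and CpG-rich. Motifs of other promoter-binding factors were searched on both strands in the same windows, as a description. The ETS core CCGGAAG was in 15 absent windows (22.1%, 13.8 to 33.3) and in 17.9% of kept ones, beside 9.004% of all windows. The NFY box CCAAT was in 24 absent windows (35.3%) and 26.8% of kept ones, beside 37.3% of all windows. The YY1 form ANATGGCG was in 8 absent windows (11.8%, 6.08 to 21.5) and 20 kept ones (4.54%, 2.95 to 6.90), a difference of 7.23 points (1.08 to 17.1). At the same fold enrichment the YY1 difference was 8.20 points with an interval of -0.203 to 16.6. The cyclic AMP response element TGACGTCA was in 1 absent window and 8 kept ones. The NRF1 form GCGCNTGCGC was in 3 absent windows (4.41%) and 35 kept ones (7.94%). A match is only a run of letters, and binding of these factors was not measured.

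**Figure D1:**
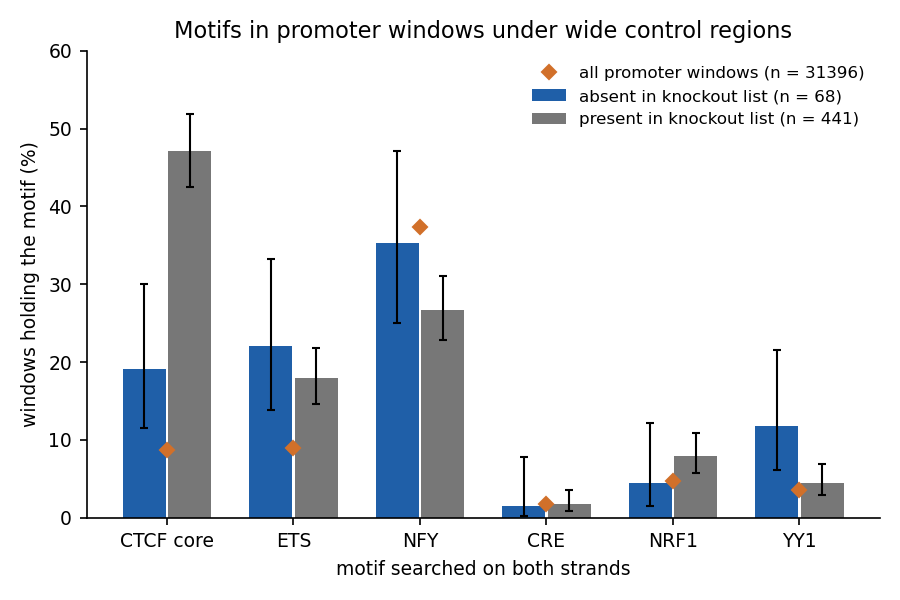
Share of promoter windows (y axis, percent) holding each of 6 motifs (x axis) for windows under the summit of 68 absent (blue) and 441 kept (grey, named present) wide control regions. Error bars are Wilson 95% intervals and orange diamonds are all 31396 windows. The CTCF core stands at 19.1% and 47.2%, and the intervals of the other 5 motifs overlap.

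Absent regions were weaker in the control library than kept ones. These values come from the same contrast as the rule and are given as a description. Control fold enrichment in the absent regions ran from 2.12 to 15.2 with a median of 6.33 (quartiles 5.18 and 7.48). In the kept regions it ran from 1.80 to 40.8 with a median of 9.16 (7.30 and 11.5). The ranges overlapped, with 93.5% of kept regions at or below the highest absent value. Only 41 absent regions (4.39%) had a fold enrichment above 10, against 2521 kept ones (39.1%). From fold enrichment and −log10 p a whole number of reads piled up at the summit was recovered for every region, called the pileup here. It had a median of 13 reads in absent and 20 reads in kept regions. The local background had a median of 1.05 reads in absent and 1.18 reads in kept regions. Absent regions were also narrower within the range, with a median of 298 bp against 320 bp. Their summits lay further from the middle, at 31.6% of the half-width (median) against 23.1%.

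Of 77 control regions exactly 250 bp wide 14 were absent, and of 88 that were 1 bp narrower 24 were absent. In the last 10 bp below 500 bp 4 of 81 were absent, and in the first 10 bp from 500 bp 2 of 61. The absent region closest to a knockout region touched it: the region within Itpk1, an inositol phosphate kinase gene (chromosome 12, 102702908 to 102703257), began at the base after a knockout region ended. Those named after Dnajc5b, Gm30599, Artn and Eea1 lay 2, 4, 5 and 7 bp from one. On the other side, the kept region at Pfkfb3, a glycolytic regulator gene (chromosome 2, 11502419 to 11502675), shared 1 bp with a knockout region, and those at Fat4 and within Zmiz1 shared 13 and 15 bp.

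The share of absent regions fell with the control pileup up to 25 to 29 reads. Width and absence made the rule, so this comparison by width is a description only. Among wide regions 49.6% were absent at 9 to 11 reads (296 of 597), 26.4% at 12 to 14, 14.3% at 15 to 17 and 5.59% at 18 to 20. At 25 to 29 reads 9 of 993 were absent (0.906%, 0.478 to 1.71). Narrower regions, under 250 bp, were absent more often at the same reads, with 68.3% at 9 to 11 and 24.5% at 15 to 17. Over all pileups 44.8% of narrower regions were absent, 32.2 points more than the wide ones. With the narrower regions weighted to the pileups of the wide ones this share was 21.8%. Kept wide regions with 9 to 11 control reads had a median of 12 reads in the knockout list and no fewer than 7. These had to be called there to be kept.

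**Figure D2:**
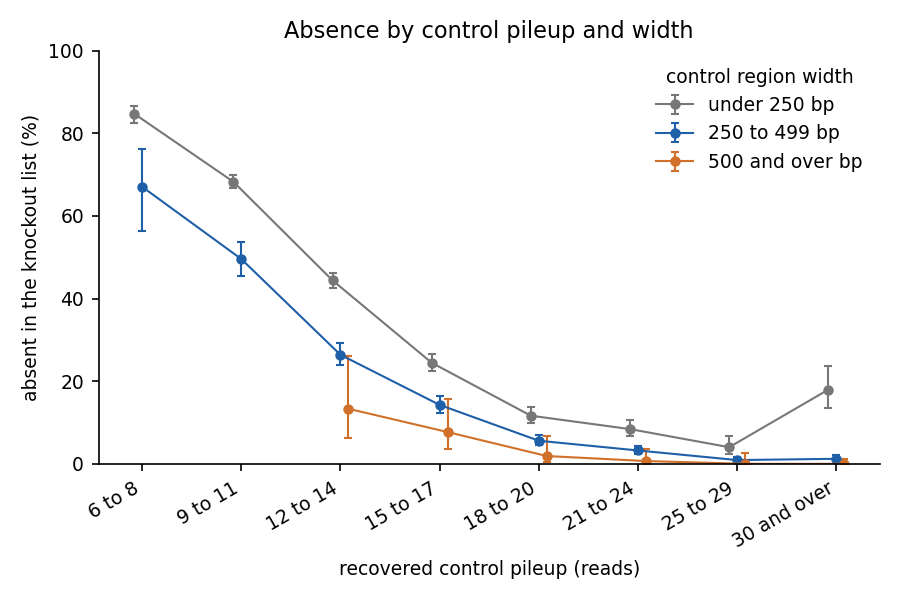
Percent of control regions absent from the knockout list (y axis) by recovered control pileup in reads (x axis) for 3 width classes, with Wilson 95% intervals; points with fewer than 20 regions are left out. At 9 to 11 reads 68.3% of regions under 250 bp and 49.6% of the wide regions were absent.

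Position relative to genes was not part of the rule, and here the absent regions differed from the kept ones. Within 1 kb of either end of a protein-coding or long non-coding gene lay 300 absent regions (32.2%, 29.2 to 35.2) and 1625 kept ones (25.2%, 24.1 to 26.3), a difference of 6.96 points (3.85 to 10.2). Between genes lay 243 absent regions (26.0%) and 2112 kept ones (32.7%), a difference of -6.70 points (-9.65 to -3.58). In gene bodies the shares were 41.8% and 42.1%, with a difference of -0.261 points (-3.61 to 3.15). With kept regions weighted to the fold enrichment of the absent ones in 10 bins, the kept share at gene ends was 20.9% and the difference 11.2 points (7.87 to 14.6).

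A difference was found near listed transcription starts and not at gene ends without a listed start nearby. Listed starts include some inside gene bodies, as at Cav1, so these counts do not divide the regions at gene ends. A listed start lay within 1 kb of 232 of 908 absent regions (25.6%, 22.8 to 28.5) and of 999 of 6280 kept ones (15.9%, 15.02 to 16.8), a difference of 9.64 points (6.76 to 12.7). A gene end with no listed start within 1 kb was near 10.6% of absent and 11.2% of kept regions, a difference of -0.638 points (-2.64 to 1.66). At the same fold enrichment the difference at starts was 12.9 points (9.80 to 16.0), and at the same pileup it was 11.8 points. Read the other way, 232 of 1231 wide regions near a start were absent (18.8%, 16.8 to 21.1). Without the absent regions that had a knockout region within 500 bp the difference at starts was 9.24 points, and among regions with a background of at most 1.1 times the lowest it was 10.1 points. Chromosome 18 is not in the table of starts and was left out of these counts.

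**Figure D3:**
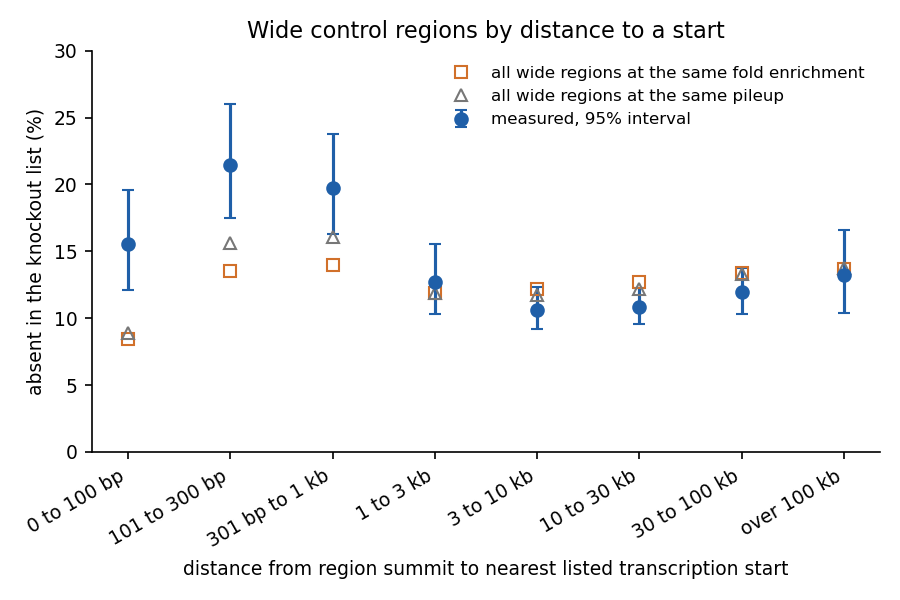
Percent of wide control regions absent from the knockout list (y axis, blue with Wilson 95% intervals) by distance from the summit to the nearest listed transcription start (x axis). Orange squares and grey triangles give the percent absent in all wide regions at the same control fold enrichment and at the same pileup; the intervals lie above both in the 3 classes up to 1 kb.

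In the 3 distance classes up to 1 kb the interval of the percent absent lay above the value at the same fold enrichment and at the same pileup, and in the 5 classes beyond it did not. With the summit within 100 bp of a start 56 of 361 wide regions were absent (15.5%, 12.1 to 19.6), where all wide regions of the same fold enrichment gave 8.42%. From there to 300 bp 21.4% were absent against 13.5%, and beyond that to 1 kb 19.8% against 14.01%. From 1 to 3 kb 12.7% were absent against 11.9%, and from 3 to 10 kb 10.6% against 12.2%. At 9 to 11 control reads 94 of 138 regions with a start within 1 kb were absent (68.1%, 59.9 to 75.3), against 43.6% elsewhere (39.1 to 48.2). At 15 to 17 reads it was 23.7% against 12.7%, and at 18 to 20 reads 10.1% against 4.92%, and in both classes the intervals did not overlap. At 25 reads and more 1 of 187 and 0 of 201 regions near a start were absent, and a difference was not detectable there.

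**Figure D4:**
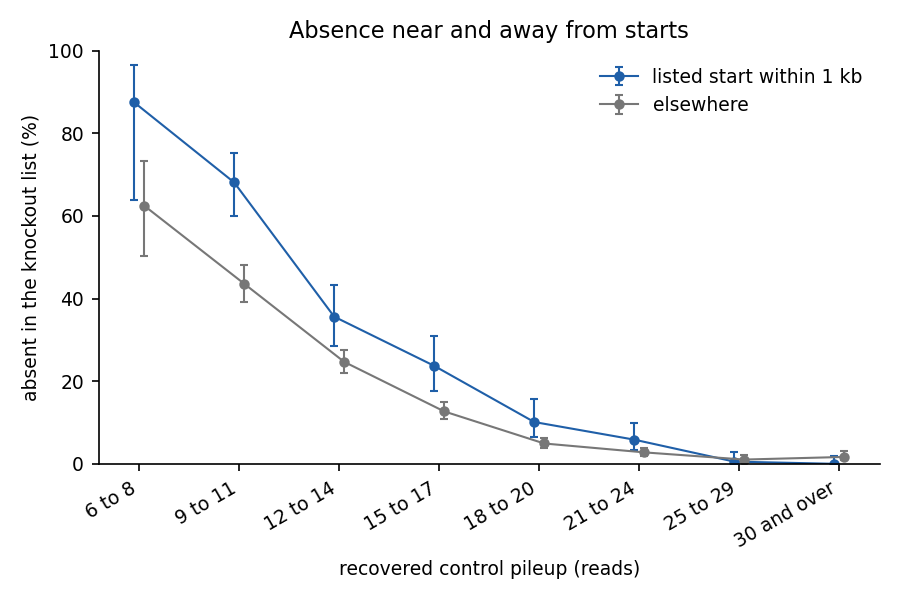
Percent of wide control regions absent from the knockout list (y axis) by recovered control pileup in reads (x axis), for regions with a listed start within 1 kb (blue) and elsewhere (grey), with Wilson 95% intervals. The blue points lie above the grey ones in the 6 classes up to 24 reads, 68.1% against 43.6% at 9 to 11 reads.

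The side of the start on which summits lay also differed. Among regions with the summit within 1 kb, the summit was before the start in 91 of 220 absent regions (41.4%, 35.1 to 48.0) and in 605 of 940 kept ones (64.4%, 61.2 to 67.4). Kept summits were thus mostly upstream and absent ones more often downstream. At the same fold enrichment the kept share was 52.8% and the difference -11.4 points (-20.3 to -2.46). The nearest start belonged to a protein-coding gene for 84.5% of absent and 78.1% of kept regions, a difference of 6.46 points (0.530 to 11.5) that was 5.07 points (-1.62 to 11.8) at the same fold enrichment.

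Absent regions lay somewhat farther from the nearest other control region, with a median gap of 15794 bp against 12006.5 bp for kept ones. One lay within 50 kb of 78.1% of absent and 83.3% of kept regions. This difference was -5.20 points (-8.10 to -2.50), and -3.28 points at the same fold enrichment. Another control region lay within 10 kb of 381 absent regions (40.8%) and of 2983 kept ones (46.2%), a difference of -5.41 points (-8.75 to -2.00), and -4.08 points at the same fold enrichment. Within 2 kb the shares were 20.6% and 18.9%, and the difference of 1.65 points had an interval of -1.01 to 4.52. The nearest other control region, of any width, was itself absent beside 34.4% of absent and 28.1% of kept regions. Weighted to the fold enrichment of that neighbour the difference was 3.64 points (0.426 to 6.85). Pairs of neighbouring wide regions enter this count from both sides. Over the 19 autosomes the percent absent ran from 10.1% on chromosomes 1 and 2 to 15.8% on chromosome 12, whose interval was 11.9 to 20.7.

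Most absent regions lay more than 10 kb from any knockout region. The gap had a median of 21025 bp, beside a median of 15794 bp from an absent region to the nearest other control region. For 318 absent regions (34.1%) the gap to a knockout region was at most 10 kb. A knockout region lay within 500 bp of 65 absent regions (6.97%). In 52 of these it overlapped a different control region, and in 13 it overlapped none. The strongest absent region is one of the 13. It lies within Wnt5a, which encodes a secreted Wnt ligand (chromosome 14, 28507532 to 28507821), with 15.2-fold enrichment and 31 control reads. The knockout list held a region only 55 bp away (28507242 to 28507476, fold enrichment 4.32 in its own list), which overlapped no control region. The second, within Mtarc2, a mitochondrial amidoxime-reducing enzyme gene (chromosome 1, 184824583 to 184824884, 13.96-fold), had a knockout region 195 bp away that overlapped another control region.

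The other 8 of the 10 strongest absent regions had no knockout region within 1 kb. One lay at the start of Zfp282, a zinc-finger gene (chromosome 6, 47877454 to 47877826, 12.5-fold), with the nearest knockout region 41.4 kb away. Another lay at the start of Frmd6, a FERM-domain gene (chromosome 12, 70825448 to 70825943, 11.96-fold), 84.3 kb from a knockout region; at 496 bp it was also among the 5 widest. A region within Map3k5, a stress kinase gene, had 12.7-fold enrichment and a gap of 44.9 kb, and the one 14.3 kb from Dpf3, a chromatin remodelling subunit gene, had 13.1-fold and a gap of 268.3 kb. The remaining ones were named after Urad, Eif3f, Vwa8 and Entpd2, with 12.9, 12.5, 12.3 and 12.1. Their gaps to a knockout region were 3.42, 22.6, 32.1 and 1.075 kb. The widest absent regions besides Frmd6 lay at Gm30599 (1 bp short of the limit), Fam98c (497 bp), Thrb, a thyroid hormone receptor gene (496 bp), and Snrpe, a spliceosome protein gene (487 bp), with fold enrichments from 5.48 to 7.48.

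A small group of absent regions had many reads on a high background. Of the 10 absent regions with at least 30 reads, the Wnt5a region alone had a background near the lowest, 1.11 reads. In the other 9 the background was between 21.1 and 32.7 reads and the fold enrichment between 2.12 and 2.81. Of these, 7 lay in the 71.5 kb gene Sfi1, which encodes a centrosome protein (chromosome 11, 3131850 to 3203347), with pileups from 51 to 61 reads. The other 2 lay 61.0 kb from Axin2 (76 reads) and 32.8 kb from Scaf8 (53 reads). Whether the high background bears on these calls was not tested.

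Sfi1 had the most absent wide regions of any protein-coding gene, counted within 10 kb. In all 67 genes had 2 or more, of which 63 had 2 and 3 had 3 (Arhgef28, Pdzd2 and Myt1l, each over 300 kb long). Sfi1, Arhgef28 and Pdzd2 also had 2 kept wide regions each, and Myt1l had 3. Of the 67 genes, 19 had no kept wide region. Among these were Entpd2, an ectonucleotidase gene, and its neighbour Npdc1, which shared a pair of absent regions with fold enrichments of 12.1 and 4.34. Lrp10 had absent regions of 10.5 and 5.36, and Hoxd13, a homeobox gene of limb and genital development, 2 of 6.48. Neighbouring genes share regions: the 67 genes held only 43 distinct sets, and 21 of them, protocadherin gamma genes and overlapping models on chromosome 18, shared 1 pair. Long genes have more room for regions, and no test was made. How many genes had any wide region within 10 kb is not given here, so nothing is read from these counts.

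Gene lists of heart muscle and of signalling were then read for how many wide control regions within 10 kb of a gene were absent, beside 12.6% of all wide regions. Near sarcomere and Z-disc genes 1 of 15 was absent, a region 1.85 kb from Xirp1, an actin-binding protein gene of the intercalated disc (7.98-fold), while the strongest kept one lay near Mybpc3 (19.3), which is also the strongest of the immune marker list, at Spi1. For the list of calcium handling and ion channel genes 3 of 21 were absent, among them regions at Kcnq1, a repolarising potassium channel gene (7.71), and at Itpr2, a calcium release channel gene (6.48). A knockout region lay 0.924 kb from the absent Kcnq1 region. For the energy metabolism list 1 of 9 was absent, at Slc27a1, a fatty acid transporter gene (4.99), which also had a kept region at 18.99. Near stress and fetal response genes 3 of 12 were absent, at the transcription factor gene Jun (8.47), near the heat shock protein gene Hspb1 (7.38) and at the NF-kappa-B inhibitor gene Nfkbia (7.30). These shares, from 6.67% to 25%, rest on few regions, and the interval of each covered 12.6%. Of the genes named here with an absent region, Jun alone had no kept wide region within 10 kb. The strongest kept ones were 13.1 at Kcnq1, 11.5 at Itpr2, 11.1 near Nfkbia, 9.16 near Hspb1 and 8.71 near Xirp1.

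The transcription factor, signalling and chromatin lists were read in the same way. Near cardiac transcription factor genes 4 of 17 were absent (23.5%, 9.56 to 47.3), near Hand2 (10.97), at Tbx3 (9.06), within Mef2d (6.48) and within Prdm16 (4.99). Near genes of the Wnt pathway 6 of 28 were absent (21.4%, 10.2 to 39.5). Besides Wnt5a these were at Axin1, a scaffold of the beta-catenin destruction complex (9.47), within the receptor gene Ror1 (8.83), between Wnt3a and Wnt9a (7.98), at Wnt11 (7.45) and near Wnt7b (6.37). A knockout region lay 0.739 kb from the absent Wnt11 region and 0.126 kb from the Wnt7b one. Near MAP kinase genes 2 of 12 were absent (Map3k5 and Map3k4), and near genes of the TGF-beta and BMP pathway 2 of 8, at the activin receptor gene Acvr2b (7.48) and within Ltbp1, a latent TGF-beta binding protein gene (5.59). Near chromatin remodeler genes 3 of 11 were absent, at Smarca2 (7.23), within Ino80 (6.90) and near Chd4 (5.27). Near genes of CTCF, cohesin and loop factors 2 of 12 were absent, at the cohesin regulator gene Pds5a (6.48) and at Zfp143 (5.42). The interval of each of these 6 lists again covered 12.6%. Some of these genes also had kept wide regions within 10 kb. The strongest for each was 11.7 at Pds5a, 11.2 at Wnt11 and at Map3k4, 10.5 at Wnt9a and 9.92 at Map3k5. For Wnt7b it was 7.98 and for Ror1 6.48. No kept wide region lay within 10 kb of Hand2, Tbx3, Mef2d, Prdm16, Wnt5a, Axin1, Wnt3a, Acvr2b, Ltbp1 or Zfp143.

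Within 10 kb, only the Hox clusters among the 16 lists had an interval that did not cover 12.6%, with 4 of 12 wide regions absent (33.3%, 13.8 to 60.9), where all wide regions of the same fold enrichment gave 13.2%. These 4 regions had 6.98-fold near Hoxa13, 6.48-fold for both regions within 10 kb of Hoxd13 and 4.49-fold at Hoxb8. The median of all absent regions was 6.33. The intervals of the 16 lists were not adjusted for their number, so nothing is concluded about the Hox clusters. Clustered genes share regions, so that 1 region can lie near several Hox genes, and with 1 library of each kind the interval says nothing of how the share would vary between animals. With a window of 2 kb 3 of 11 were absent (27.3%, 9.75 to 56.6), and this interval covered 12.6%. At 2 kb the interval of the cardiac transcription factor list did not cover it instead (3 of 8, 37.5%, 13.7 to 69.4). Near housekeeping genes 2 of 9 were absent, both at Gusb. Among markers of other cell types of the heart, 3 of 10 regions near fibroblast genes were absent, 2 of them at Pdgfra (6.47 and 6.33) and 1 near Postn (3.88). Pdgfra also had 2 kept wide regions within 10 kb. No absent region lay near the endothelial (0 of 9), immune (0 of 7) or smooth muscle and pericyte (0 of 11) genes, whose upper interval bounds were 29.9%, 35.4% and 25.9%.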

How the data were processed

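CTCF ChIP-seq regions of 1 control and 1 knockout library were used as deposited. The submitters' processing notes name mm10, Bowtie2 (2.2.6), SAMtools (0.1.19), MACS and MACS2, with the MACS2 version and threshold not given in the sources used here; the region names in the files show the input as background. The deposited files give a start, end and summit, a fold enrichment (a ratio over local background), −log10 p and q values and a score that equals 10 times −log10 q rounded down in every line. Lists were called per library, the lowest −log10 q being 1.32 and 1.37. Depth is not given. Pileup and background were solved from fold = (pileup + 1) / (background + 1) and an upper Poisson tail; whole pileups gave the deposited −log10 p within 0.001 in 100% of regions. In the control list the background was never under 1.01 reads, in the knockout list never under 0.851.

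Overlaps of at least 1 bp counted as presence. Wilson and Newcombe 95% intervals cover counting error only. Absent minus kept differences at the same fold enrichment or pileup weight kept regions to the absent ones, with normal intervals. For distance classes and gene lists, the values at the same fold enrichment or pileup are the percent absent of all wide regions, without an interval. In the comparison by width the narrower regions were weighted to the wide ones. Gene positions (33073 protein-coding and long non-coding genes) and 31396 promoter windows of 25748 gene symbols came from RefSeq tables of GRCm38.p6; a genome sequence was not used here, so the planned motif, GC and repeat search over whole regions was replaced by promoter windows. Of 405 list entries 397 were matched on chromosomes 1 to 19. Members, lists and rules were chosen with earlier results of these data known. Named regions follow a rule: the 10 strongest, 5 widest and 5 nearest to a knockout region, the 5 kept with the shortest overlap, the 10 strongest kept, the strongest absent and kept region per list, and genes with 2 or more absent regions, named by the nearest protein-coding gene within 100 kb. The Sfi1, Axin2 and Scaf8 regions, further list members and the printed promoters were chosen after their values were seen. The methods were tested on simulated data. Scripts ran in Python 3.11.15 with scipy 1.17.1, pandas 2.3.3, matplotlib 3.10.9 and numpy 2.4.6. Alternatives covered width limits, overlap rules, thresholds and gene windows. Some regions that the rule names are not reported here.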

Additional observations from a re-analysis of the deposited data

How the results depend on the processing

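No paired analysis was possible because there was a single ChIP library of each kind. The count of 933 absent regions was 2099 with a lower width limit of 200 bp, 462 with 300 bp and 1730 with a reciprocal overlap of at least 50%. The percent absent (12.6%) was 17.96%, 10.4% and 23.4% under these, 16.8% with summits within 100 bp, 11.8% when a knockout region within 500 bp counted as presence, 16.98% with a −log10 q of at least 5 in both lists, 15.3% with a fold enrichment of at least 5 in both and 9.34% with the −log10 q limit in the control list only. Wide minus narrower regions (-32.2 points, a description) was -9.12 at the same pileup and -20.8 with the −log10 q limit in the control list. At gene ends the difference (6.96 points) was 11.2 at the same fold enrichment, 10.8 at the same pileup, 11.7 at the same fold enrichment and width, 5.58 with reciprocal overlap, 4.13 with the −log10 q limit in the control list and 3.90 with gene ends within 5 kb, where the difference between genes (-6.70) was -3.63; in gene bodies (-0.261 points) it was -3.89 at the same pileup, 0.596 with reciprocal overlap and 1.13 with the −log10 q limit in the control list. At listed starts (9.64 points) it was 12.9 at the same fold enrichment, 6.52 with a −log10 q of at least 5 in the control, 6.31 with a pileup of at least 15 and 5.75 with reciprocal overlap. The spacing difference, -5.41 points within 10 kb, was 1.65 points within 2 kb. With gene windows of 50 kb 2 lists (Hox clusters and housekeeping), against 1, had an interval that did not cover the overall percent. The planned sequence features over whole regions were not run. The CTCF core difference (-28.0 points) lay between -27.2 and -22.1 under the single alternatives; combined with the same fold enrichment it was -21.3 for the region's own bases, -17.9 for the core with 1 more G and -16.98 within 50 bp of the summit. Position comparisons at the same pileup or at the same fold enrichment and width, those at listed starts and those in promoter windows were added after the data were examined. What moved these values is unknown, since the cause was not tested.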
